A study of Macaca fascicularis with 6 samples.

Results

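The SLC25A genes, which encode the carrier proteins of the mitochondrial inner membrane and a few relatives on other membranes, were examined in oocytes of the cynomolgus monkey (Macaca fascicularis). They were taken as every gene of the count table whose symbol begins with SLC25A, which gave 47 genes of 28164. The groups were MII oocytes matured in culture (IVM MII), MII oocytes matured in the animal (IVO MII) and immature oocytes at the germinal vesicle stage (GV), with 2 libraries each. All 3 groups were labelled wild type, stripped and not treated. How many oocytes and animals stand behind a library, and how old the animals were, is not stated in the labels. The p-values therefore measure only the spread between these libraries, which may be technical. The design asks how transcript levels differ among the 3 groups.

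Mitochondrial carriers move nucleotides, phosphate, keto acids, amino acids and cofactors across the inner membrane, which is otherwise closed to them. Each protein is built from repeated membrane-spanning modules and typically exchanges a substrate of the matrix for one of the cytosol. In the oocyte, mitochondria supply ATP for meiosis and early cleavage, and the cell lives on transcripts stored during growth, because transcription is largely silent from the germinal vesicle stage to the activation of the embryo's genome. ADP/ATP carriers bring ATP out of the matrix, the phosphate carrier brings in the phosphate from which it is made, and other members feed the tricarboxylic acid cycle, the urea cycle, folate and methyl metabolism and iron-sulphur synthesis.

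Library totals ran from 27707021 to 35515139 counts. Levels are given as CPM, counts scaled to the TMM-adjusted library total, and comparisons between genes as CPM per kilobase of exon. A count of 0 allowed up to 3 counts, which is 0.0695 to 0.116 CPM in these libraries and covers counting error only. All 12 oocyte markers looked for had counts in every library, with summed levels of 14223 and 16270 CPM in IVM MII, 8453 and 10645 CPM in IVO MII and 29162 and 35204 CPM in GV. Markers of cumulus and granulosa cells, the somatic cells that surround the oocyte, summed to 88.9 and 86.5 CPM in IVM MII, 36.6 and 53.8 CPM in IVO MII and 39.9 and 34.0 CPM in GV. No library had a count for 4 of the 12 cumulus and granulosa markers present (PTX3, FOXL2, INHA and STAR). Of the 6 that were tested, 3 were higher and 0 lower in IVM MII than in IVO MII (50% called, all genes 24.6%). Of the 12 oocyte markers, 4 were higher and 1 lower in the same comparison (41.7% called). Markers of theca, stroma and endothelium summed to 163 and 155 CPM in IVM MII, 95.2 and 90.0 CPM in IVO MII and 331 and 388 CPM in GV, and LUM had no count. VWF alone averaged 103 CPM in IVM MII, 43.9 CPM in IVO MII and 312 CPM in GV. PECAM1 and OGN did not follow it. PECAM1 averaged 19.4 CPM in IVM MII, 15.6 CPM in IVO MII and 9.34 CPM in GV. OGN averaged 3.99 CPM in IVM MII, 7.73 CPM in IVO MII and 4.12 CPM in GV. CDH5 averaged 31.3 CPM in IVM MII, 24.8 CPM in IVO MII and 32.8 CPM in GV. Its means ranked as those of VWF but lay closer together, and its IVM MII and GV libraries overlapped. Of the 5 tested, 1 was higher and 1 lower in IVM MII than in GV (40% called, all genes 50.3%). In IVO MII over GV, 2 were higher and 1 lower (60% called, all genes 58.5%). Blood cell markers summed to 4.38 to 13.7 CPM, with no count for CD3E and HBB. The part of these other cells in the results was not tested. In bulk libraries, fewer cells of a type and less RNA per cell cannot be told apart, and a level is a share of the polyadenylated RNA that was captured in that library.

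Of the 47 genes 38 had enough counts to be tested, of 15815 genes tested in all, and 21 reached 10 CPM in the mean of at least 1 group. The 9 that were not tested were SLC25A2, SLC25A18, SLC25A23, SLC25A34, SLC25A35, SLC25A41, SLC25A42, SLC25A45 and SLC25A47. None of these 9 had more than 21 counts in a library, and SLC25A45 had no count. Summed over all 47 genes, the family reached 1567 and 1701 CPM in IVM MII, 1548 and 1879 CPM in IVO MII and 1744 and 2125 CPM in GV. The MII groups overlapped, and both GV libraries lay above both IVM MII libraries but overlapped with IVO MII.

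A single ADP/ATP carrier made up about as much of the family's RNA as all the others together. SLC25A5, the isoform of growing and dividing cells, held a mean of 49.9 ± 4.80% of all SLC25A CPM per kilobase in IVM MII, 46.7 ± 5.07% in IVO MII and 55.1 ± 0.435% in GV (SD, n = 2 each). Its level was 315 and 405 CPM per kilobase in IVM MII, 285 and 419 in IVO MII and 441 and 536 in GV. The next 5 genes, in order of mean CPM per kilobase, were SLC25A31, SLC25A3, SLC25A32, SLC25A38 and SLC25A36. SLC25A31, the germ cell ADP/ATP carrier, had 94.1 and 86.5 CPM per kilobase in IVM MII, 134 and 148 in IVO MII and 44.8 and 49.6 in GV. At the other end, 17 of the 38 tested genes stayed below 10 CPM in the mean of every group.

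**Figure D1:**
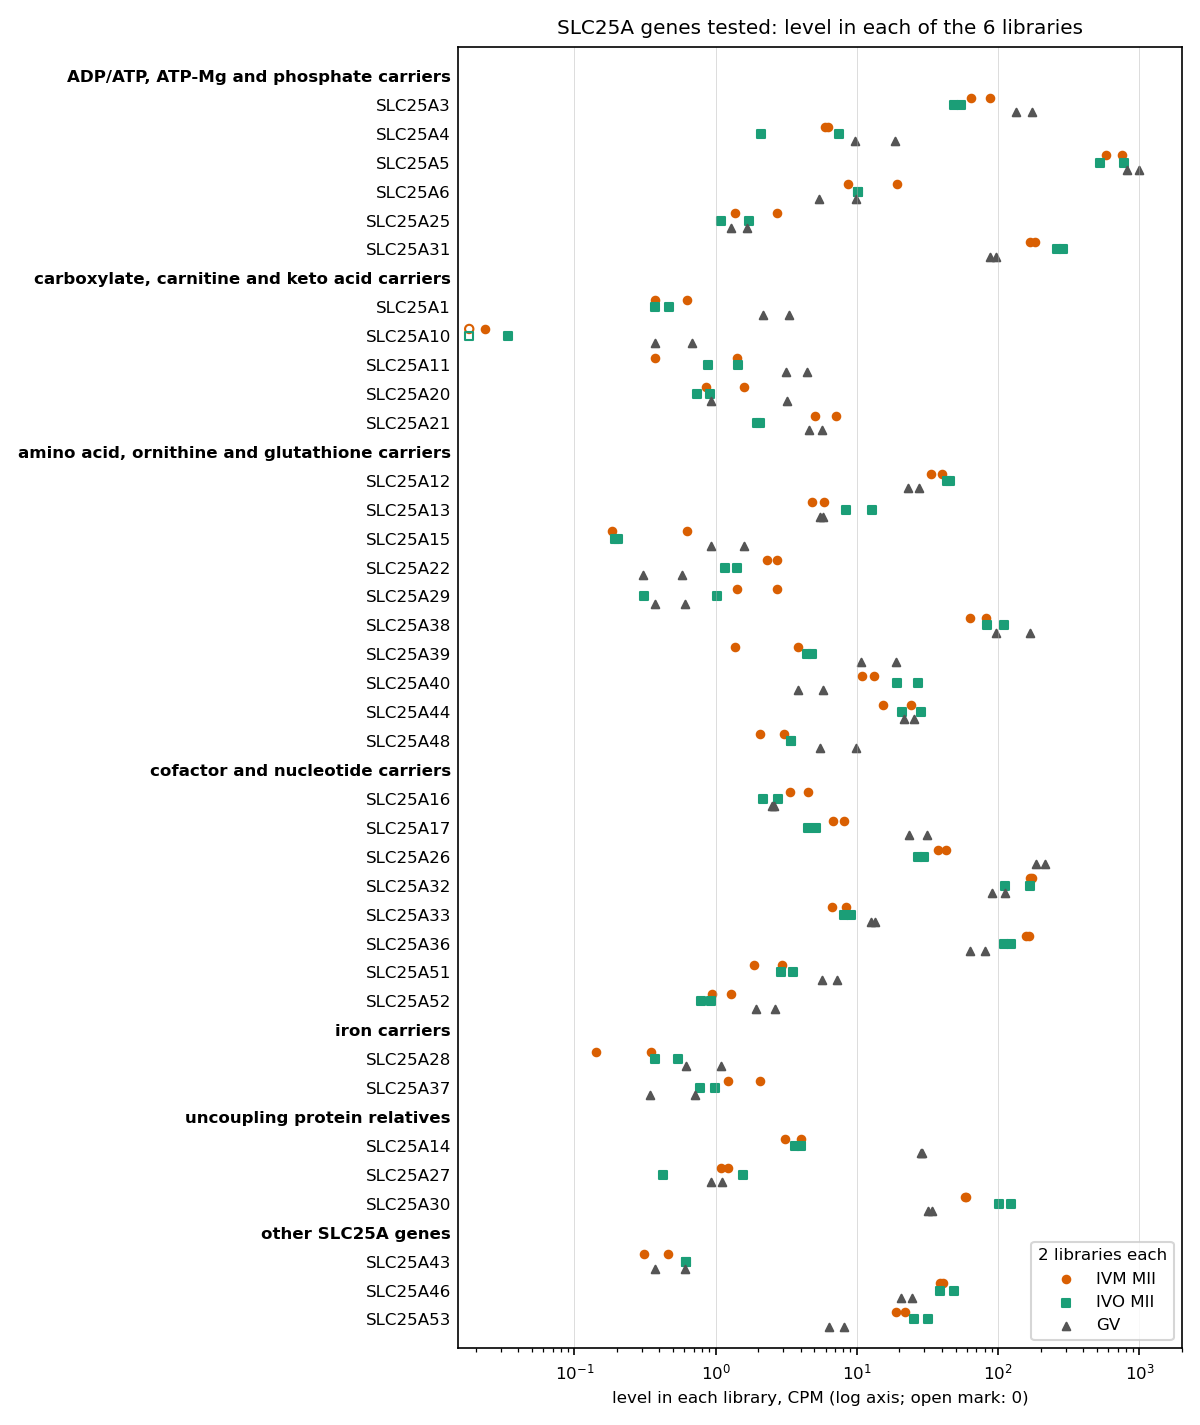
Levels of the tested SLC25A genes in each of the 6 libraries, in CPM on a log axis, grouped by what the carriers move; each point is a library of IVM MII, IVO MII or GV. SLC25A5 lies farthest to the right with 528 to 993 CPM, and SLC25A14 and SLC25A26 show the GV libraries far to the right of all 4 MII libraries.

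Between the MII oocytes, few carriers differed. edgeR's quasi-likelihood test with Benjamini-Hochberg adjustment over all genes called 5 of the 38 tested members at an adjusted p under 0.05, which is 13.2%, against 24.6% of all genes tested. Higher in IVM MII than in IVO MII was 1 member, SLC25A21 (all genes, 14.3%), and lower were 4, SLC25A13, SLC25A30, SLC25A31 and SLC25A40 (all genes, 10.3%). The median log2 fold change of the 38 was -0.04, against 0.02 over all genes tested. An unadjusted p under 0.05 was found for 10 members. When counts were scaled by library totals alone, the median over all genes moved to 0.24 and the split became 4 members higher (SLC25A3, SLC25A21, SLC25A26 and SLC25A36) and 1 lower (SLC25A30). Only SLC25A21 and SLC25A30 were thus called in the same direction under both scalings. With 2 libraries against 2, an exact permutation test of a single gene cannot give a two-sided p under 0.333, so calls rest on the spread shared across genes. A member that was not called is not shown to be alike in the compared groups.

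SLC25A21 carries the keto acids of lysine and tryptophan breakdown. It had 5.02 and 7.16 CPM in IVM MII, 1.97 and 2.07 CPM in IVO MII and 5.65 and 4.60 CPM in GV. Both IVO MII libraries lay below all 4 others. The log2 fold change of IVM MII over IVO MII was 1.59 ± 0.33 (SE, adjusted p = 0.00532), 3.01-fold higher, and the call held under every alternative, with values between 1.31 and 1.85. The gene stayed below 10 CPM and is named after its values were seen. PAX9 on the opposite strand overlaps 21.9% of its exon length, and PAX9 itself reached at most 0.374 CPM.

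SLC25A31 and SLC25A30 were the most abundant of the 4 that were lower in IVM MII. SLC25A31 had 183 and 169 CPM in IVM MII, 260 and 288 CPM in IVO MII and 87.3 and 96.6 CPM in GV. The 3 groups did not overlap, with IVM MII between GV and IVO MII. Its log2 fold change of IVM MII over IVO MII was -0.64 ± 0.21 (SE, adjusted p = 0.0446), 1.56-fold lower. That call was marginal: it was lost when any 1 of the 6 libraries was left out, with log2 fold changes from -0.71 without IVO MII replicate 1 to -0.56 without IVO MII replicate 2, and at -0.42 under library totals, -0.62 without the filter on low counts and -0.61 in a fit of the 4 MII libraries alone. SLC25A30, a relative of the uncoupling proteins described mainly in kidney, had 59.1 and 58.7 CPM in IVM MII, 123 and 102 CPM in IVO MII and 31.8 and 33.7 CPM in GV. Here too the groups stood apart in the same order. IVM MII was 1.90-fold lower than IVO MII (log2 -0.93 ± 0.21 SE, adjusted p = 0.00842). The call was lost without IVM MII replicate 1 (log2 -0.90, and log2 fold changes likewise hereafter), IVM MII replicate 2 (-0.92) or IVO MII replicate 1 (-0.78).

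SLC25A40 is a glutathione carrier of the inner membrane closely related to SLC25A39. It had 13.2 and 10.9 CPM in IVM MII, 26.9 and 19.1 CPM in IVO MII and 5.72 and 3.82 CPM in GV, again without overlap. IVM MII was 1.91-fold lower than IVO MII (log2 -0.93 ± 0.29 SE, adjusted p = 0.0345). The call was lost under library totals (-0.69) and without IVM MII replicate 1 (-1.04), IVM MII replicate 2 (-0.80) or IVO MII replicate 1 (-0.66). SLC25A13, citrin, exchanges mitochondrial aspartate for cytosolic glutamate in the malate-aspartate shuttle. It had 4.77 and 5.85 CPM in IVM MII, 8.31 and 12.8 CPM in IVO MII and 5.45 and 5.78 CPM in GV, so the IVO MII libraries alone were high. IVM MII was 1.99-fold lower than IVO MII (log2 -0.99 ± 0.30 SE, adjusted p = 0.0317). The call was lost under library totals (-0.79), in a fit of the 4 MII libraries alone (-0.96), with a correction for exon length (-0.86) and without IVM MII replicate 1 (-0.82), IVM MII replicate 2 (-1.14) or IVO MII replicate 2 (-0.63).

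**Figure D2:**
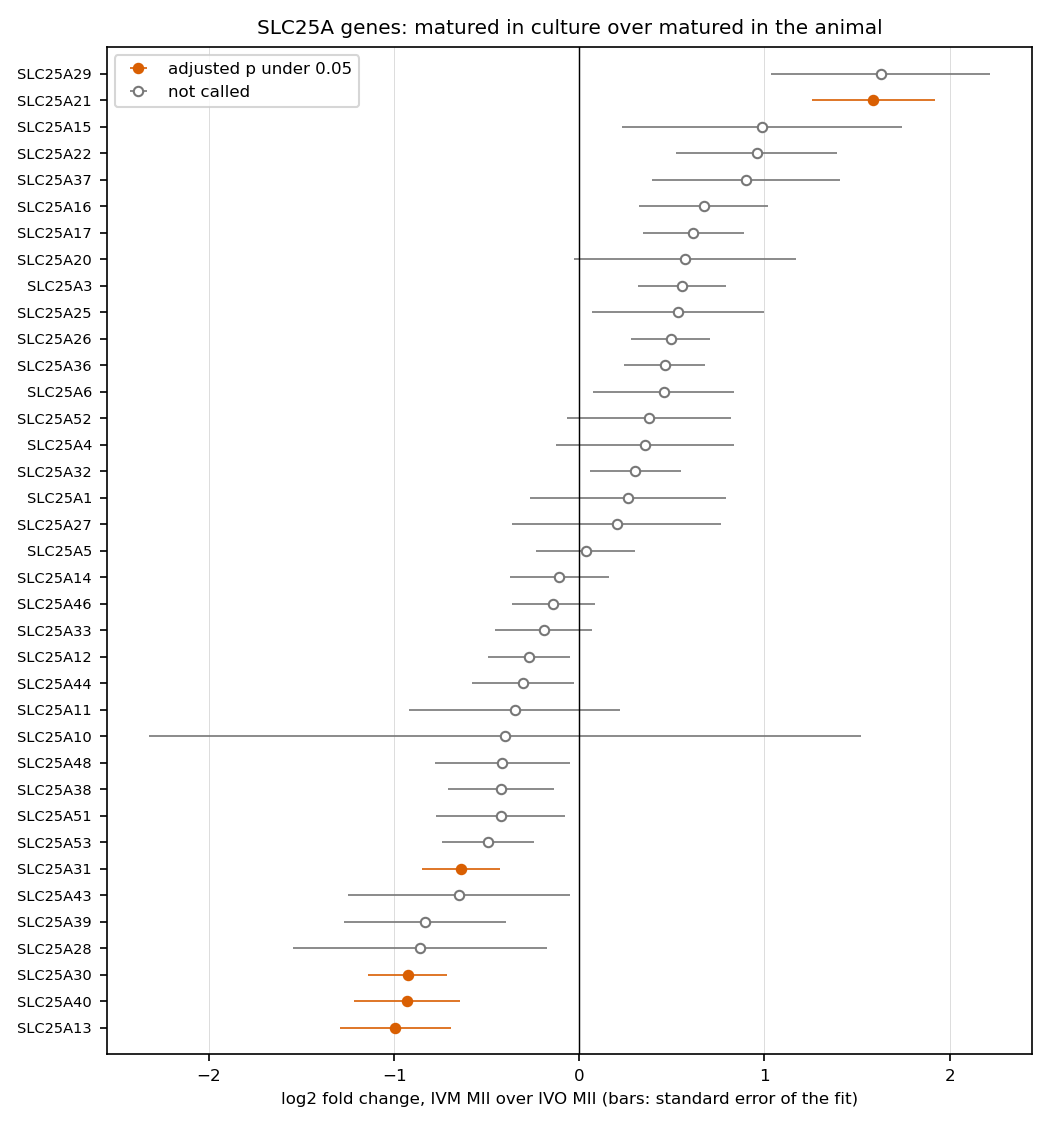
Log2 fold change of IVM MII over IVO MII for the tested SLC25A genes, sorted, with bars of 1 standard error; filled points have an adjusted p under 0.05. The filled points are SLC25A21 at 1.59 and SLC25A31, SLC25A30, SLC25A40 and SLC25A13 between -0.64 and -0.99.

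Both kinds of MII oocytes differed from GV oocytes in more of the carriers. In IVM MII over GV, 24 of the 38 members were called (63.2%, against 50.3% of all genes), 10 higher (all genes, 25.6%) and 14 lower (all genes, 24.7%). In IVO MII over GV, 23 were called (60.5%, against 58.5% of all genes), 9 higher (all genes, 28.1%) and 14 lower (all genes, 30.5%). The median log2 fold change of the 38 was -0.39 in IVM MII over GV, against 0.06 over all genes, and -0.36 in IVO MII over GV, against -0.07 over all genes. Leaving out 1 library moved these medians to between -0.59 and -0.032 in IVM MII over GV and to between -0.65 and -0.012 in IVO MII over GV. Under library totals IVM MII over GV gave 13 higher and 10 lower, with the median over all genes at 0.35, while IVO MII over GV kept 9 higher and 14 lower. Both comparisons use the same GV libraries, so a common deviation of those would move both. GV replicate 2 weighed on the lower calls: without it they numbered 7 in IVM MII over GV and 7 in IVO MII over GV. Among the members named, a correction for exon length ended the calls of SLC25A33 (-0.40), SLC25A37 (1.33) and SLC25A46 (0.54) in IVM MII over GV and of SLC25A4 (-1.11), SLC25A11 (-1.37), SLC25A13 (0.44) and SLC25A36 (0.35) in IVO MII over GV.

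**Figure D3:**
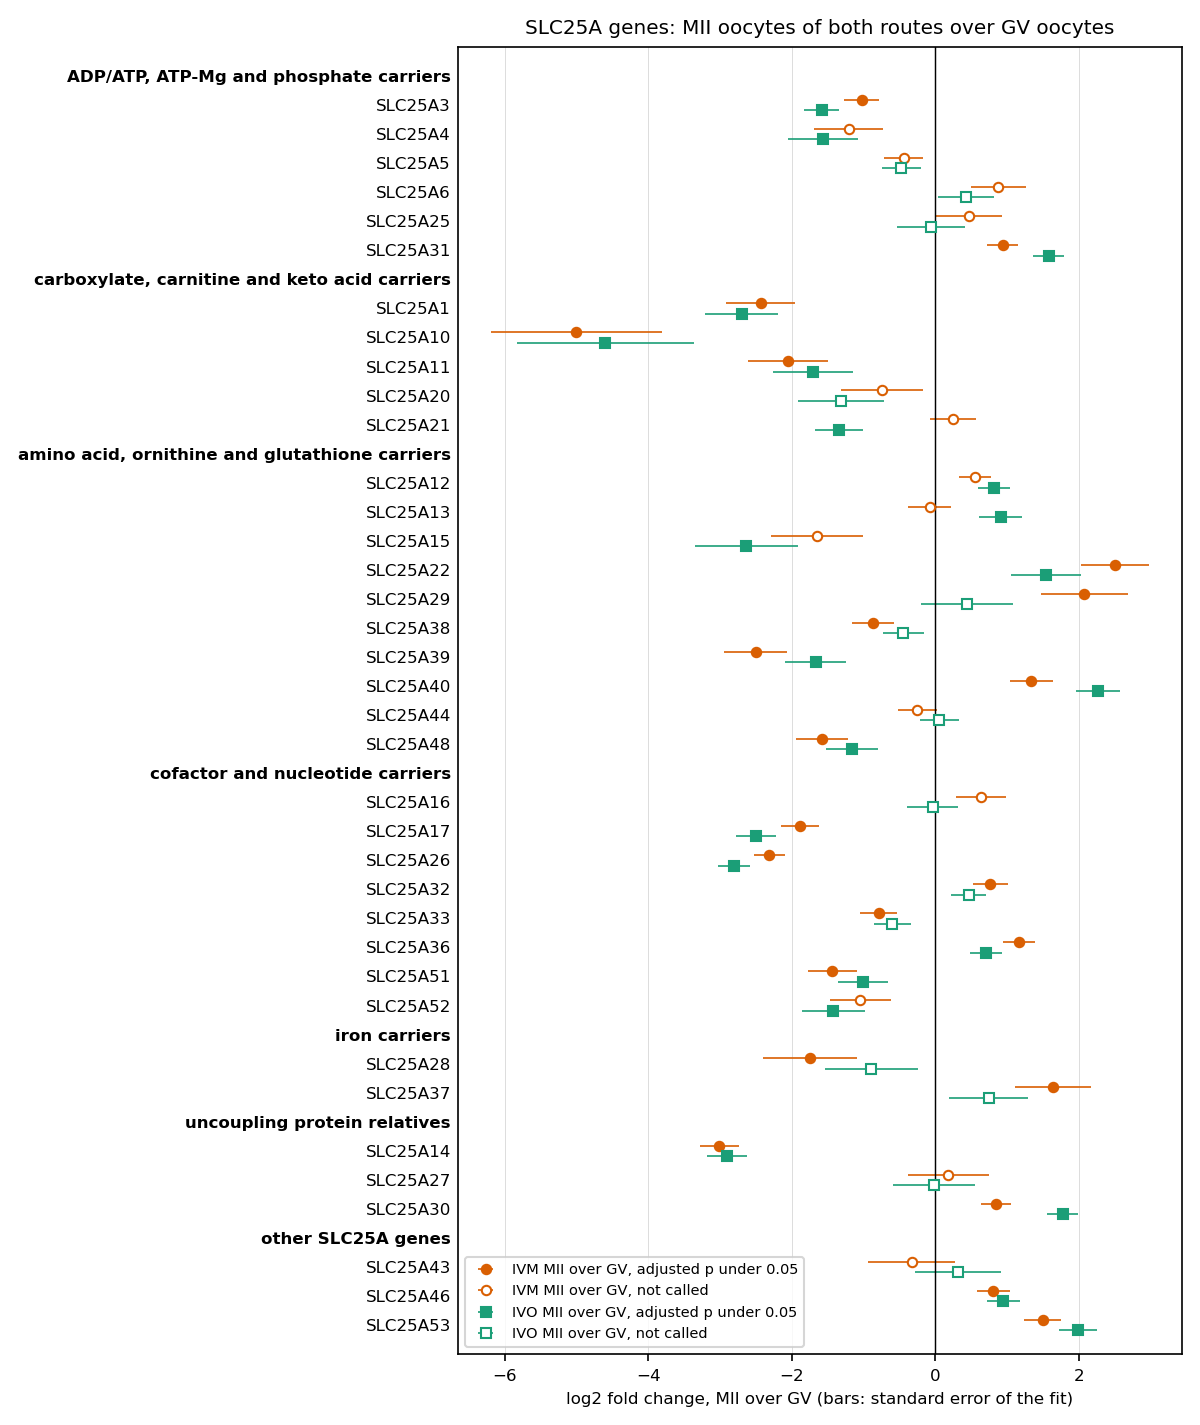
Log2 fold changes over GV of the tested SLC25A genes, for IVM MII and IVO MII, with bars of 1 standard error; filled points have an adjusted p under 0.05. SLC25A14 lies at -3.01 in IVM MII and -2.90 in IVO MII and SLC25A53 at 1.49 in IVM MII and 1.99 in IVO MII, both over the same GV libraries; the fitted value of SLC25A10 rests on 1 count in each MII group and is no measure of size.

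Among the ADP/ATP carriers, which exchange cytosolic ADP for matrix ATP, SLC25A31 was higher in both MII groups than in GV. SLC25A5 (X:116172311-116175801, plus strand) had 584 and 750 CPM in IVM MII, 528 and 776 CPM in IVO MII and 816 and 993 CPM in GV. All 4 MII libraries were below both GV libraries, but neither difference was called (log2 -0.44 ± 0.27 SE, adjusted p = 0.191 for IVM MII and -0.47 ± 0.27 SE, adjusted p = 0.151 for IVO MII). SLC25A31 (5:126682509-126715344, plus strand), which mouse spermatocytes need to complete meiosis, was 1.91-fold higher in IVM MII than in GV (log2 0.94 ± 0.21 SE, adjusted p = 0.0035). In IVO MII it was 2.98-fold higher than in GV (log2 1.58 ± 0.22 SE, adjusted p = 9.18e-05). Both calls held under every alternative, except that the IVM MII difference did not pass a test against a fold change of 1.5. SLC25A4, the isoform of heart and skeletal muscle, had 5.95 and 6.25 CPM in IVM MII, 2.09 and 7.41 CPM in IVO MII and 9.74 and 18.5 CPM in GV. Its IVO MII libraries differed more from each other than the IVM MII libraries did. It was called lower in IVO MII than in GV (log2 -1.57 ± 0.48 SE, adjusted p = 0.0153) and missed the threshold in IVM MII over GV (-1.21 ± 0.47 SE, adjusted p = 0.0507). Of 14 alternatives, 8 called it lower in IVM MII over GV, among them DESeq2 (-1.26), RLE size factors (-1.26) and the fit without GV replicate 1 (-1.59). The 8 include a replicate block chosen after seeing the data. They also include both fits without an IVO MII library, a group outside that comparison. Without IVO MII replicate 2 it was called higher in IVM MII than in IVO MII (1.56). The IVO MII call was lost without GV replicate 2 (-1.03) or IVO MII replicate 1 (-0.92), and the value was -2.74 without IVO MII replicate 2. SLC25A6, a broadly expressed isoform, had 19.3 and 8.61 CPM in IVM MII, 10.2 and 10.1 CPM in IVO MII and 5.38 and 9.81 CPM in GV and was called in no comparison. In IVM MII over GV its log2 fold change of 0.88 ± 0.39 (SE, adjusted p = 0.0767) was called higher under 6 of 14 alternatives, among them library totals (1.22), the exon length correction (1.22) and the fits without GV replicate 2 (1.38) or IVM MII replicate 2 (1.36). These isoforms are close in sequence, and reads that fit several of them or their processed pseudogenes were counted by rules that the sources used here do not state. SLC25A6 lies on an unplaced scaffold of the macFas5 genome.

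Set against each other per kilobase, SLC25A5 made up 73.9 and 80.7% of the 4 ADP/ATP carriers in IVM MII, 66.7 and 72.4% in IVO MII and 88.9 and 88.6% in GV. SLC25A31 made up 22.0 and 17.2% in IVM MII, 31.3 and 25.6% in IVO MII and 9.04 and 8.19% in GV. The mean share of SLC25A31 was 19.6 ± 3.39% in IVM MII, 28.4 ± 4.05% in IVO MII and 8.61 ± 0.597% in GV (SD, n = 2 each), and no library of one group overlapped another group. SLC25A4 and SLC25A6 together filled the small remainder. A share is a ratio within a library and does not depend on how libraries were scaled.

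**Figure D4:**
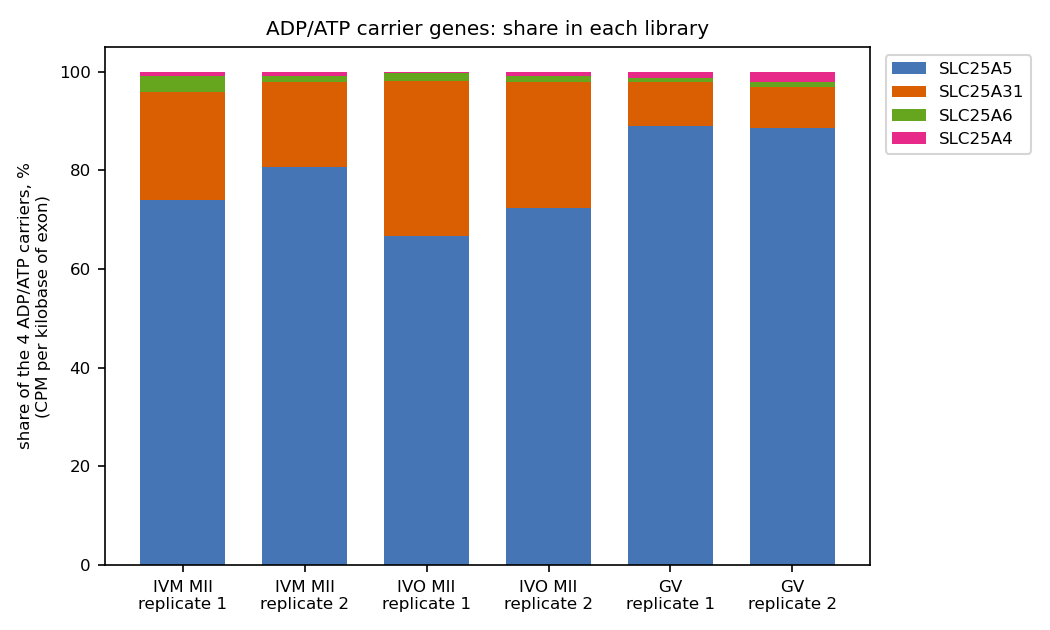
Shares of the 4 ADP/ATP carriers in their summed CPM per kilobase, in percent, with a stacked bar for each library in the order IVM MII, IVO MII and GV. SLC25A31 takes 17.2 to 31.3% in the 4 MII libraries and 8.19 to 9.04% in the GV libraries.

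The phosphate carrier SLC25A3, which supplies phosphate to ATP synthase, had 64.1 and 87.5 CPM in IVM MII, 54.3 and 48.9 CPM in IVO MII and 134 and 175 CPM in GV. Every MII library was below both GV libraries. It was 2.04-fold lower in IVM MII than in GV (log2 -1.03 ± 0.24 SE, adjusted p = 0.0041) and 3.00-fold lower in IVO MII than in GV (log2 -1.58 ± 0.24 SE, adjusted p = 0.000198). The IVM MII call was lost without IVM MII replicate 1 (-0.78). SLC25A25, an ATP-Mg/phosphate carrier that is controlled by calcium, stayed between 1.08 and 2.71 CPM and was called in no comparison. Of its relatives, SLC25A23 and SLC25A41 were not tested, and SLC25A24 was not analysed because no counted gene carried that symbol.

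The carboxylate, carnitine and keto acid carriers were low, at 8.96 and 8.87 CPM summed in IVM MII, 4.64 and 4.31 CPM in IVO MII and 12.7 and 16.1 CPM in GV. Of the 5 tested, 3 were lower in IVM MII than in GV and 4 lower in IVO MII than in GV, with none higher. Over all genes 24.7% were lower in IVM MII and 30.5% lower in IVO MII than in GV. SLC25A1, the citrate carrier that exports citrate for lipid synthesis, had 0.625 and 0.369 CPM in IVM MII, 0.464 and 0.374 CPM in IVO MII and 2.18 and 3.28 CPM in GV. It was 5.41-fold lower in IVM MII (adjusted p = 0.00158) and 6.49-fold lower in IVO MII (adjusted p = 0.000776) than in GV. SLC25A11, the oxoglutarate/malate carrier of the malate-aspartate shuttle, had 1.41 and 0.369 CPM in IVM MII, 1.43 and 0.883 CPM in IVO MII and 3.13 and 4.40 CPM in GV. It was 4.15-fold lower in IVM MII (adjusted p = 0.00923) and 3.26-fold lower in IVO MII (adjusted p = 0.0198) than in GV. The IVM MII call was lost without GV replicate 2 (-1.79) or IVM MII replicate 2 (-1.40) and stood at -3.30 without IVM MII replicate 1, and the IVO MII call was lost without GV replicate 2 (-1.44) or IVO MII replicate 2 (-1.38). The dicarboxylate carrier SLC25A10 had counts of 1 and 0 in IVM MII, 0 and 1 in IVO MII and 20 and 11 in GV. It was called lower in both (adjusted p = 0.00466 in IVM MII and 0.00705 in IVO MII), and no fold is given because its MII counts lie under the floor. Without GV replicate 1 it had too few counts to be tested. SLC25A21 was lower in IVO MII than in GV (log2 -1.34 ± 0.33 SE, adjusted p = 0.0046) and was not called in IVM MII over GV (0.25 ± 0.32 SE, adjusted p = 0.535). The carnitine/acylcarnitine carrier SLC25A20, which brings fatty acids in for oxidation, was between 0.734 and 3.21 CPM and was called in no comparison. In IVO MII over GV its log2 fold change was -1.32 ± 0.60 (SE, adjusted p = 0.0763), and it was called lower without the filter on low counts (-1.30) or without GV replicate 1 (-1.95).

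Among the amino acid, ornithine and glutathione carriers, 10 were tested. In IVM MII over GV 3 were higher and 3 lower, and in IVO MII over GV 4 were higher and 3 lower. That is 60% called in IVM MII over GV, against 50.3% of all genes, and 70% in IVO MII over GV, against 58.5% of all genes. The aspartate/glutamate carriers were both higher in IVO MII than in GV. SLC25A12, aralar, had 40.3 and 33.7 CPM in IVM MII, 45.7 and 43.6 CPM in IVO MII and 23.0 and 27.6 CPM in GV. It was 1.77-fold higher in IVO MII than in GV (log2 0.82 ± 0.22 SE, adjusted p = 0.0076), a call lost without GV replicate 1 (0.70), and had a log2 fold change of 0.55 ± 0.22 (SE, adjusted p = 0.0563) in IVM MII over GV, called under library totals (0.86). SLC25A13 was 1.88-fold higher in IVO MII than in GV (adjusted p = 0.0212) and had a log2 fold change of -0.08 ± 0.30 (SE, adjusted p = 0.835) in IVM MII over GV. Its IVO MII call was lost without GV replicate 1 (0.87), GV replicate 2 (0.96) or IVO MII replicate 2 (0.58). SLC25A12 made up 85.1 to 93.4% of this pair per kilobase in the 6 libraries.

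The glutathione carriers SLC25A39 and SLC25A40 moved in opposite directions. SLC25A39 had 3.80 and 1.36 CPM in IVM MII, 4.44 and 4.82 CPM in IVO MII and 10.7 and 18.8 CPM in GV. It was 5.67-fold lower in IVM MII (log2 -2.50 ± 0.44 SE, adjusted p = 0.000792) and 3.18-fold lower in IVO MII (log2 -1.67 ± 0.43 SE, adjusted p = 0.00561) than in GV. Without IVM MII replicate 1 it was also called lower in IVM MII than in IVO MII (-1.73). The value in IVM MII over GV was -3.39 without IVM MII replicate 1, and the IVO MII call was lost without GV replicate 2 (-1.21). SLC25A40 was 2.53-fold higher in IVM MII (log2 1.34 ± 0.30 SE, adjusted p = 0.00308) and 4.82-fold higher in IVO MII (log2 2.27 ± 0.30 SE, adjusted p = 7.91e-05) than in GV, under every alternative. In GV both SLC25A39 libraries were above both SLC25A40 libraries per kilobase, at 5.23 and 9.18 against 1.31 and 0.878 CPM per kilobase. In the MII libraries the order was turned, with IVM MII at 1.85 and 0.666 CPM per kilobase for SLC25A39 and 3.03 and 2.51 for SLC25A40, and IVO MII at 2.17 and 2.35 for SLC25A39 and 6.18 and 4.39 for SLC25A40.

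SLC25A38, which carries glycine for heme synthesis, had 81.7 and 62.7 CPM in IVM MII, 82.7 and 111 CPM in IVO MII and 95.8 and 168 CPM in GV. The GV libraries differed widely from each other. It was called lower in IVM MII than in GV (log2 -0.87 ± 0.29 SE, adjusted p = 0.0251) but not in IVO MII over GV (-0.45 ± 0.29 SE, adjusted p = 0.198), where it was called without GV replicate 1 (-0.79). The IVM MII call was lost under library totals (-0.55) and without GV replicate 2 (-0.40), IVM MII replicate 1 (-1.03) or IVM MII replicate 2 (-0.68). The glutamate carrier SLC25A22 was low but higher in MII, with 2.73 and 2.30 CPM in IVM MII, 1.16 and 1.43 CPM in IVO MII and 0.579 and 0.304 CPM in GV. It was 5.66-fold higher in IVM MII (adjusted p = 0.00124) and 2.92-fold higher in IVO MII (adjusted p = 0.0167) than in GV, and the IVO MII call was lost without GV replicate 2 (1.16) or IVO MII replicate 2 (1.40). SLC25A29, a carrier of basic amino acids, had 2.73 and 1.42 CPM in IVM MII, 0.309 and 1.02 CPM in IVO MII and 0.375 and 0.609 CPM in GV. It was called higher in IVM MII than in GV (log2 2.07 ± 0.61 SE, adjusted p = 0.0141), a call lost without GV replicate 1 (1.77) or IVM MII replicate 1 (1.56). In IVM MII over IVO MII its log2 fold change was 1.63 ± 0.59 (SE, adjusted p = 0.0641), called without IVO MII replicate 2 (2.74) and without the filter on low counts (1.65).

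The ornithine carrier of the urea cycle, SLC25A15, had 0.185 and 0.625 CPM in IVM MII, 0.193 and 0.204 CPM in IVO MII and 0.919 and 1.59 CPM in GV. It was called lower in IVO MII than in GV (log2 -2.63 ± 0.72 SE, adjusted p = 0.00799; lost at -2.19 without GV replicate 2) and missed the threshold in IVM MII over GV (-1.65 ± 0.65 SE, adjusted p = 0.0506). Of 14 alternatives, 9 called it lower in IVM MII over GV, among them RLE size factors (-1.69), and its value ran from -2.72 without IVM MII replicate 2 to -0.96 without IVM MII replicate 1. SLC25A48 was placed among the amino acid, ornithine and glutathione carriers by the list used, without a check of its substrate. It had 3.03 and 2.07 CPM in IVM MII, 3.40 and 3.43 CPM in IVO MII and 5.52 and 9.77 CPM in GV. It was 2.98-fold lower in IVM MII (adjusted p = 0.00384) and 2.24-fold lower in IVO MII (adjusted p = 0.0157) than in GV. Both of its calls were lost without GV replicate 2, at -1.10 in IVM MII and -0.69 in IVO MII. SLC25A44, which carries branched-chain amino acids, ran from 15.3 to 28.2 CPM, with all 3 groups overlapping, and was called in no comparison.

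Of the 9 tested cofactor and nucleotide carriers, IVM MII had 2 higher and 5 lower than GV (77.8% called, all genes 50.3%), and IVO MII had 1 higher and 4 lower than GV (55.6% called, all genes 58.5%), with 0 called between the MII groups by edgeR or DESeq2 (2 with an unadjusted p under 0.05 in edgeR). SLC25A26, which brings S-adenosylmethionine, the methyl donor, into mitochondria (2:121815227-121978794, plus strand), had 37.4 and 42.7 CPM in IVM MII, 27.1 and 29.8 CPM in IVO MII and 184 and 213 CPM in GV. All 4 MII libraries were far below both GV libraries. It was 4.97-fold lower in IVM MII (log2 -2.31 ± 0.22 SE, adjusted p = 1.28e-05) and 6.99-fold lower in IVO MII (log2 -2.80 ± 0.23 SE, adjusted p = 2.67e-06) than in GV, under every alternative. LRIG1 on the opposite strand shares 34.1% of its exon length, and counting did not use strand. LRIG1 had 13.7 and 17.2 CPM in IVM MII, 24.0 and 22.3 CPM in IVO MII and 13.4 and 11.2 CPM in GV, and the part of the shared exon bases in the result was not tested. SLC25A17, a carrier of the peroxisomal membrane, had 8.06 and 6.73 CPM in IVM MII, 4.48 and 5.16 CPM in IVO MII and 23.2 and 31.6 CPM in GV. It was 3.70-fold lower in IVM MII (log2 -1.89 ± 0.27 SE, adjusted p = 0.000199) and 5.67-fold lower in IVO MII (log2 -2.50 ± 0.28 SE, adjusted p = 2.54e-05) than in GV, under every alternative.

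The pyrimidine nucleotide carriers SLC25A33 and SLC25A36 differed in opposite directions between IVM MII and GV. SLC25A36 had 156 and 166 CPM in IVM MII, 124 and 110 CPM in IVO MII and 80.2 and 63.0 CPM in GV. The groups did not overlap, with IVM MII highest. In IVM MII over IVO MII the gene was not called (log2 0.46 ± 0.22 SE, adjusted p = 0.143). It was 2.25-fold higher in IVM MII than in GV (log2 1.17 ± 0.22 SE, adjusted p = 0.00118), and 1.63-fold higher in IVO MII than in GV (log2 0.71 ± 0.22 SE, adjusted p = 0.0154). The IVO MII call was lost without GV replicate 2 (0.55) or IVO MII replicate 1 (0.63). SLC25A33 had 6.64 and 8.35 CPM in IVM MII, 8.12 and 9.0 CPM in IVO MII and 13.3 and 12.6 CPM in GV. It was called lower in IVM MII than in GV (log2 -0.79 ± 0.26 SE, adjusted p = 0.0246) but not in IVO MII over GV (-0.60 ± 0.26 SE, adjusted p = 0.0662). The IVM MII call was lost under library totals (-0.51) and without GV replicate 1 (-0.74), GV replicate 2 (-0.82) or IVM MII replicate 1 (-0.60).

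SLC25A32, which carries folate and flavin, had 175 and 169 CPM in IVM MII, 111 and 167 CPM in IVO MII and 89.7 and 112 CPM in GV. Both IVM MII libraries were above all others, while IVO MII overlapped GV. In IVM MII over IVO MII the gene was not called (log2 0.30 ± 0.24 SE, adjusted p = 0.394). It was called higher in IVM MII than in GV (log2 0.77 ± 0.25 SE, adjusted p = 0.0217) and not in IVO MII over GV (0.47 ± 0.25 SE, adjusted p = 0.122), where it was called without IVO MII replicate 1 (0.74). The IVM MII call was lost without GV replicate 1 (0.62), IVM MII replicate 1 (0.78) or IVM MII replicate 2 (0.81). SLC25A51, which imports NAD, had 1.88 and 2.93 CPM in IVM MII, 3.52 and 2.92 CPM in IVO MII and 5.69 and 7.27 CPM in GV. It was 2.70-fold lower in IVM MII (adjusted p = 0.00503) and 2.01-fold lower in IVO MII (adjusted p = 0.0245) than in GV. Without GV replicate 2 both calls were lost (-1.24 in IVM MII and -0.82 in IVO MII), and the IVO MII call also without IVO MII replicate 2 (-0.87). Its near copy SLC25A52, whose reads are hard to separate from those of SLC25A51, was called lower in IVO MII than in GV (log2 -1.42 ± 0.44 SE, adjusted p = 0.0152), a call lost without GV replicate 2 (-1.18) or IVO MII replicate 2 (-1.29). Its IVM MII value over GV was -1.04 ± 0.42 (SE, adjusted p = 0.0569) and was called lower under 5 of 14 alternatives, RLE size factors (-1.09) and the fit without IVO MII replicate 2 (-1.02) among them. SLC25A16 lay between 2.16 and 4.52 CPM and was called in no comparison. It was called higher in IVM MII over GV under library totals (0.91) and with the exon length correction (1.08), against 0.63 ± 0.35 (SE, adjusted p = 0.148) otherwise.

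The iron carriers, mitoferrins, were both low. SLC25A37, which serves heme synthesis in red cell precursors, had 2.06 and 1.22 CPM in IVM MII, 0.773 and 0.985 CPM in IVO MII and 0.341 and 0.710 CPM in GV. Its relative SLC25A28, found in many tissues, had 0.347 and 0.142 CPM in IVM MII, 0.541 and 0.374 CPM in IVO MII and 0.613 and 1.08 CPM in GV. SLC25A37 was higher in IVM MII than in GV (log2 1.64 ± 0.53 SE, adjusted p = 0.0224) and SLC25A28 lower (-1.75 ± 0.66 SE, adjusted p = 0.0432). Neither was called in IVO MII over GV, at 0.74 ± 0.55 (SE, adjusted p = 0.264) and -0.89 ± 0.64 (SE, adjusted p = 0.252). Nor was either called in IVM MII over IVO MII, at 0.90 ± 0.51 (SE, adjusted p = 0.216) and -0.86 ± 0.69 (SE, adjusted p = 0.386). Per kilobase, SLC25A37 made up 87.6 and 91.1% of the pair in IVM MII, 62.9 and 75.8% in IVO MII and 39.7 and 43.8% in GV. The shares did not overlap between the groups, on few counts, and a difference in shares was not tested. The SLC25A37 call was lost without GV replicate 1 (1.21) or IVM MII replicate 1 (1.25), and its value was 2.27 without GV replicate 2. The SLC25A28 call was lost with DESeq2 (-1.83), under library totals (-1.43) and without GV replicate 1 (-2.10), GV replicate 2 (-1.29) or IVM MII replicate 2 (-1.26), and its value was -2.50 without IVM MII replicate 1.

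SLC25A14 and SLC25A30, closely related members of the uncoupling protein branch, differed in opposite directions between MII and GV. SLC25A14 (X:127227294-127262361, plus strand), known mainly from brain, had 3.10 and 4.01 CPM in IVM MII, 4.02 and 3.63 CPM in IVO MII and 28.6 and 28.7 CPM in GV. The 4 MII libraries were close together and far below GV. It was 8.06-fold lower in IVM MII (log2 -3.01 ± 0.27 SE, adjusted p = 8.79e-06) and 7.48-fold lower in IVO MII (log2 -2.90 ± 0.27 SE, adjusted p = 7.66e-06) than in GV. SLC25A30 (17:24597475-24658687, plus strand) was 1.80-fold higher in IVM MII (log2 0.85 ± 0.21 SE, adjusted p = 0.0062) and 3.42-fold higher in IVO MII (log2 1.77 ± 0.22 SE, adjusted p = 4.48e-05) than in GV. All 4 of these calls held under every alternative, except that SLC25A30 in IVM MII did not pass a test against a fold change of 1.5. Summed with another relative, SLC25A27 (0.425 to 1.56 CPM, called in no comparison), they reached 63.3 and 63.9 CPM in IVM MII, 127 and 107 CPM in IVO MII and 61.3 and 63.5 CPM in GV. The sums in IVM MII and GV were close, and their makeup was not. In IVM MII, SLC25A14 had 1.27 and 1.63 CPM per kilobase and SLC25A30 had 15.9 and 15.8. In GV, SLC25A14 had 11.7 CPM per kilobase in each library and SLC25A30 had 8.58 and 9.10.

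Of the remaining members, SLC25A46 and SLC25A53 were higher in MII. SLC25A46 sits on the outer membrane and takes part in shaping mitochondria. It had 40.3 and 38.6 CPM in IVM MII, 48.6 and 38.4 CPM in IVO MII and 24.7 and 20.5 CPM in GV. It was 1.75-fold higher in IVM MII (log2 0.81 ± 0.23 SE, adjusted p = 0.0116; lost at 0.68 without GV replicate 2) and 1.93-fold higher in IVO MII (log2 0.95 ± 0.23 SE, adjusted p = 0.00379) than in GV. SLC25A53, whose substrate is not established, had 18.8 and 21.9 CPM in IVM MII, 25.4 and 31.8 CPM in IVO MII and 6.37 and 8.05 CPM in GV. The groups did not overlap. In IVM MII over IVO MII the gene was not called (log2 -0.49 ± 0.25 SE, adjusted p = 0.165). It was 2.82-fold higher in IVM MII (log2 1.49 ± 0.26 SE, adjusted p = 0.00065) and 3.97-fold higher in IVO MII (log2 1.99 ± 0.26 SE, adjusted p = 6.69e-05) than in GV, under every alternative. SLC25A43 ran from 0.313 to 0.618 CPM and was called in no comparison.

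Genes that work with the carriers were counted from lists. Of 24 tested partner enzymes, 4 were higher and 2 lower in IVM MII than in IVO MII, 25% called against 24.6% of all genes. ISCU, the scaffold on which iron-sulphur clusters are built, averaged 137 CPM in IVM MII and 16.6 CPM in IVO MII, 8.27-fold higher in IVM MII (adjusted p = 0.000501). FECH, which inserts iron into heme, was 2.42-fold lower in IVM MII than in IVO MII (adjusted p = 0.011). MDH1 and MDH2, the cytosolic and mitochondrial malate dehydrogenases of the malate-aspartate shuttle, stood 2.21-fold higher (adjusted p = 0.0084) and 1.96-fold lower (adjusted p = 0.0233) in IVM MII than in IVO MII. The MDH1 and FECH calls were lost without IVM MII replicate 2 (0.78 and -1.04), and the MDH2 call under library totals (-0.74) and without replicate 2 of IVM MII (-0.77) or of IVO MII (-0.86). Against GV, 3 of the 24 were higher and 7 lower in IVM MII, and 8 higher and 8 lower in IVO MII. The called share was 41.7% in IVM MII over GV, against 50.3% of all genes, and 66.7% in IVO MII over GV, against 58.5%. Their median log2 fold change was -0.23 for IVM MII over IVO MII, -0.44 for IVM MII over GV and -0.32 for IVO MII over GV. The acetylcarnitine enzyme CRAT was 10.2-fold lower in IVM MII and 7.75-fold lower in IVO MII than in GV, and GOT1, the cytosolic aspartate aminotransferase, 3.99-fold lower in IVM MII and 4.61-fold lower in IVO MII (adjusted p from 0.000121 to 0.00033 over these 4 values). The folate enzyme MTHFD2 was 1.92-fold higher in IVM MII (adjusted p = 0.00663; lost at 0.67 without IVM MII replicate 1) and 2.96-fold higher in IVO MII (adjusted p = 0.000209) than in GV.

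The machinery that delivers newly made carriers to the inner membrane gave 3 higher and 0 lower of 11 tested in IVM MII over IVO MII, 1 higher and 7 lower in IVM MII over GV, and 2 higher and 9 lower in IVO MII over GV. The called share was 27.3% in IVM MII over IVO MII (all genes, 24.6%), 72.7% in IVM MII over GV (all genes, 50.3%) and 100% in IVO MII over GV (all genes, 58.5%). Its median log2 fold change was 0.73 for IVM MII over IVO MII, -1.79 for IVM MII over GV and -2.21 for IVO MII over GV, against 0.02, 0.06 and -0.07 over all genes. TOMM22, a receptor of the outer membrane, averaged 40.8 CPM in IVM MII and 11.9 CPM in IVO MII (3.43-fold higher, adjusted p = 0.000481). TIMM10, a chaperone that escorts carriers between the membranes, was 2.46-fold higher in IVM MII than in IVO MII (adjusted p = 0.0015), and 4.08-fold lower in IVM MII than in GV (adjusted p = 2.66e-05) and lower still in IVO MII than in GV (log2 -3.33, adjusted p = 1.06e-06). Its partner TIMM9 was 2.03-fold higher in IVM MII (adjusted p = 0.00482; lost at 0.86 on the log2 scale without GV replicate 2) and 2.77-fold higher in IVO MII (adjusted p = 0.000359) than in GV. TIMM22, the channel that inserts carriers, was 3.54-fold lower in IVM MII (adjusted p = 0.000522) and 4.61-fold lower in IVO MII (adjusted p = 0.000109) than in GV.

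Other transporters of the mitochondrial membranes gave 5 higher and 1 lower of 18 tested in IVM MII over IVO MII, 2 higher and 9 lower in IVM MII over GV, and 1 higher and 10 lower in IVO MII over GV. The called share was 33.3% in IVM MII over IVO MII (all genes, 24.6%), 61.1% in IVM MII over GV (all genes, 50.3%) and 61.1% in IVO MII over GV (all genes, 58.5%). Their median log2 fold change was 0.20 for IVM MII over IVO MII, -1.04 for IVM MII over GV and -1.23 for IVO MII over GV. VDAC1, the main pore of the outer membrane, averaged 157 CPM in IVM MII and 49.0 CPM in IVO MII (3.20-fold higher, adjusted p = 0.000665). The pyruvate carrier subunit MPC1 was 12.8-fold lower in IVM MII and 11.4-fold lower in IVO MII than in GV (adjusted p = 1.55e-06 for IVM MII and 1.12e-06 for IVO MII). Of 5 carrier-like genes without an SLC25A symbol 3 were tested, with 0 called in IVM MII over IVO MII (0 also at an unadjusted p under 0.05 in edgeR), 1 higher and 1 lower in IVM MII over GV, and 0 higher and 1 lower in IVO MII over GV. The called share was 66.7% in IVM MII over GV (all genes, 50.3%) and 33.3% in IVO MII over GV (all genes, 58.5%). MTCH2, a carrier relative of the outer membrane, was 3.44-fold lower in IVM MII (adjusted p = 0.000417) and 2.66-fold lower in IVO MII (adjusted p = 0.00117) than in GV. UCP2 averaged 0.428 CPM in IVM MII and 0.0338 CPM in GV, at the floor in GV, and its call was lost under DESeq2 and without any 1 of the 4 libraries compared.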

How the data were processed

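Full-length cDNA was primed on poly(A) and amplified by PCR before tagmentation, per the labels' protocols, and no molecular identifiers are named there. FastQC, fastp, SAMtools, Bowtie2 and featureCounts are named in the submitters' processing notes. The deposited table holds raw counts per gene, which the authors made with featureCounts 2.0.1 from fragments over exons, without strand, on the macFas5 genome, per the file headers. As Bowtie2 aligns without splicing, a read that crosses an exon junction can be lost or be placed in a retrocopy. Of the SLC25A genes 7 share exon bases with another gene: SLC25A26, SLC25A21, SLC25A22 (7.11% of its exon length), SLC25A11 (4.88%), SLC25A27 (3.37%), SLC25A35 (1.05%) and SLC25A32 (0.678%).

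edgeR 4.0.16 in R 4.3.3 filtered genes with filterByExpr and computed TMM factors (0.903 to 1.22). The quasi-likelihood fit took in all 6 libraries, with group as its term, and tests were two-sided, with Benjamini-Hochberg adjustment over all 15815 genes of a comparison at 0.05. The fit had 3 residual degrees of freedom and a biological coefficient of variation of 0.232. The test was run on simulated counts first. Totals are given for each library without an error, and the spread given with a mean share is the SD of the 2 libraries of a group.

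Members named in full were those called in IVM MII over IVO MII at 10 CPM or more, the 6 largest called changes in each direction over GV at 10 CPM or more without overlap, the 6 highest per kilobase, and the ADP/ATP and iron carriers. Other members, named after their values were seen, complete the family. The members and lists were chosen with earlier results of these data known. Same-numbered libraries were not taken as pairs, since no source used here says what a number marks. Alternatives were DESeq2 1.42.0, RLE size factors, library totals, no filter on low counts, the 4 compared libraries alone, replicate blocks, a correction for exon length (a loess offset), a test against a fold change of 1.5 and leaving out each library. 1 tested member and 1 partner enzyme stay in the counts, are not reported here by name, and the member is not drawn. No sequence is printed.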

Additional observations from a re-analysis of the deposited data

Results flagged for a closer look

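For 5 carriers the change over GV differed between the MII groups. The difference was tested as the direct contrast of IVM MII over IVO MII, so these are the same 5 calls as in that comparison, among 38 members tested. On the log2 scale the change over GV was 1.59 higher in IVM MII than in IVO MII for SLC25A21. It differed by -0.99 for SLC25A13, -0.93 for SLC25A30, -0.64 for SLC25A31 and -0.93 for SLC25A40, where the change in IVM MII was the lower of the 2. SLC25A30, SLC25A31 and SLC25A40 were higher than GV in both MII groups. SLC25A13 and SLC25A21 were called over GV only in IVO MII, in opposite directions. No group had the 4 libraries that a test for a single outlying library needs.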

How the results depend on the processing

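No single member changed its sign between the main fit and an alternative where either of them called it. That check did not cover the split, median and summed ratio of the family. Under library totals all of these turned in IVM MII over IVO MII, and the split and ratio turned in IVM MII over GV. Library totals gave 4 members higher and 1 lower in IVM MII over IVO MII, with medians of 0.17 in IVM MII over IVO MII and -0.087 in IVM MII over GV. They moved the ratio of summed CPM to 1.10 for IVM MII over IVO MII (0.953 with TMM) and 1.04 for IVM MII over GV (0.845 with TMM). Without the filter on low counts, IVM MII over IVO MII had 2 higher and a median of 0.25. That median is over a larger set, since every member with a count enters it. The 4 MII libraries alone gave 3 called, of which 2 lower. Against a fold change of 1.5, IVM MII over IVO MII kept 1 call and 0 lower, and IVM MII over GV had 15 calls, of which 5 higher. Leaving out 1 library gave 1 to 5 calls in IVM MII over IVO MII (1 to 3 higher, 0 to 3 lower, median -0.063 to 0.26), 7 to 17 lower in IVM MII over GV (17 to 27 called, median -0.59 to -0.0324), and 13 to 23 called in IVO MII over GV (7 to 15 lower, median -0.65 to -0.012). A group left with a lone library borrows its spread from the other groups. The causes of these shifts were not tested.

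Deviations of same-numbered libraries correlated at -0.114 (IVM MII with IVO MII), -0.144 (IVM MII with GV) and 0.178 (IVO MII with GV). With a replicate block, 1 member was higher and 3 lower in IVM MII over IVO MII, 10 and 15 in IVM MII over GV and 9 and 14 in IVO MII over GV. A crossed block with the IVM MII numbers swapped, chosen after seeing the data, gave 2 higher and 5 lower in IVM MII over IVO MII. It is among the alternatives counted for single members. In IVM MII over GV it is among those that called SLC25A4, SLC25A6, SLC25A12, SLC25A15 and SLC25A52. The uncrossed block ended the calls of SLC25A31 in IVM MII over IVO MII and of SLC25A28 in IVM MII over GV, where it called SLC25A4 and SLC25A15 lower. Over single members and alternatives, 1466 values stayed on their side of the threshold, 81 calls were lost and 47 gained, not counting the test against a fold change of 1.5, which ended 18 more. Low counts limit SLC25A1, SLC25A10, SLC25A15, SLC25A22, SLC25A28, SLC25A29, SLC25A37 and the 9 genes not tested, among others.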
